A study of Mus musculus with 4 samples.

Results

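The jugular ganglion is the upper part of the vagal ganglion complex and holds somatosensory neurons that derive from the neural crest. The deposited annotation divides the jugular neurons of this mouse data set into 6 types, JG1 to JG6. The 4 small ones, JG1, JG3, JG5 and JG6, are described here, each against the other 3 and against the 2 large types, JG2 and JG4. Their cells were taken by the cluster name that the authors deposited for each cell. They number 109 of 1825 cells in all: 24 in JG1, 30 in JG3, 25 in JG5 and 30 in JG6, beside 70 in JG2 and 66 in JG4.

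RNA was measured by 10x Genomics Single Cell 3' v2 droplet libraries, which count the 3' ends of transcripts by unique molecular identifiers (UMIs), in jugular and nodose ganglia of mice aged 5 weeks. Libraries wild-type unsorted 1 and 2 came from C57BL6 mice with no sort. Libraries Vglut2Cre-Tomato sorted 1 and 2 came from a cross of Slc17a6tm2(cre)Lowl with a B6.Cg line that carries Gt(ROSA)26Sortm14(CAG-tdTomato)Hze, in which Cre is made from the Slc17a6 (Vglut2) locus and switches on tdTomato, and cells were sorted for the fluorescent protein. The number of animals pooled for each library is not stated, so p-values measure only the spread between libraries, which may be technical. In the same order the libraries gave 5, 9, 3 and 7 cells of JG1, 5, 16, 3 and 6 of JG3, 2, 13, 3 and 7 of JG5, and 5, 15, 1 and 9 of JG6.

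Primary somatosensory neurons fall into classes that were worked out mainly in the dorsal root ganglion (DRG). C-fibre low-threshold mechanoreceptors (C-LTMRs) respond to gentle touch and use the channel Piezo2, NP3 neurons carry receptors for itch-inducing cytokines and release peptides such as somatostatin, large-fibre neurons have myelinated axons rich in neurofilament, and cool-sensing neurons carry the channel Trpm8. Lists of genes known for these DRG classes, and for channels, receptors, peptides and transcription factors, were used to order the results.

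A level in the text is the mean UMI count per 10000 UMIs of a cell over the cells of a type in 1 library. It is given for libraries with at least 3 cells of the type, then as mean ± SD over n libraries. This leaves 3 libraries for JG5 (wild-type unsorted 1 has 2 cells) and for JG6 (Vglut2Cre-Tomato sorted 1 has 1 cell), and 4 for each other type. A gene is called higher or lower where its level differs at least 2-fold after 0.1 is added to both sides, in the same direction in every library that gives both, and with a level of at least 0.5 on either side. Since the types are clusters of these same transcripts, a difference between types is a description and carries no test.

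The 4 types are alike in number but not in depth. JG1 made up 9.8% of the 245 jugular neurons (95% exact Clopper-Pearson interval 6.38 to 14.2), JG3 12.2% (8.42 to 17.0), JG5 10.2% (6.71 to 14.7) and JG6 12.2% (8.42 to 17.0). These intervals, which overlap, cover counting error only. Median UMI counts per cell were 44239.5 in JG1, 34922.5 in JG3, 63079 in JG5 and 17978.5 in JG6, against 54809 in JG2 and 33716.5 in JG4. JG6 was the shallowest type in every library that held at least 3 of its cells. Whole libraries held 270 to 930 cells and 16147719 to 30778125 UMIs. A single barcode occurred in 2 libraries, in no cell of the small types. Defining markers were checked against the label: Prdm12, a transcription factor of crest-derived sensory neurons, was at 1.70 ± 0.899 in JG1 (SD, n = 4), 1.84 ± 0.837 in JG3 (n = 4), 1.15 ± 0.538 in JG5 (n = 3) and 2.22 ± 0.494 in JG6 (n = 3). The summed level of the 5 nodose markers was 0.207 to 1.05 over the libraries of the 4 types, against 14.5 to 15.5 in the nodose cluster NG14. The 4 jugular markers Prdm12, Prrxl1, Runx1 and Isl2 summed to 13.3 to 16.4 in JG1 and 9.43 to 12.3 in JG3. They summed to 3.98 to 5.66 in JG5 and 8.92 to 10.8 in JG6, against 0.745 to 1.39 in NG14. Against the other small types, Runx1 and Isl2 were lower in JG5, Isl2 in JG6 and Prrxl1 in JG3. Isl2 was higher in JG1 and JG3, and Runx1 in JG6. Prdm12 was found in 20 of 25 JG5 cells. The depth plot shows the cells one by one.

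**Figure D1:**
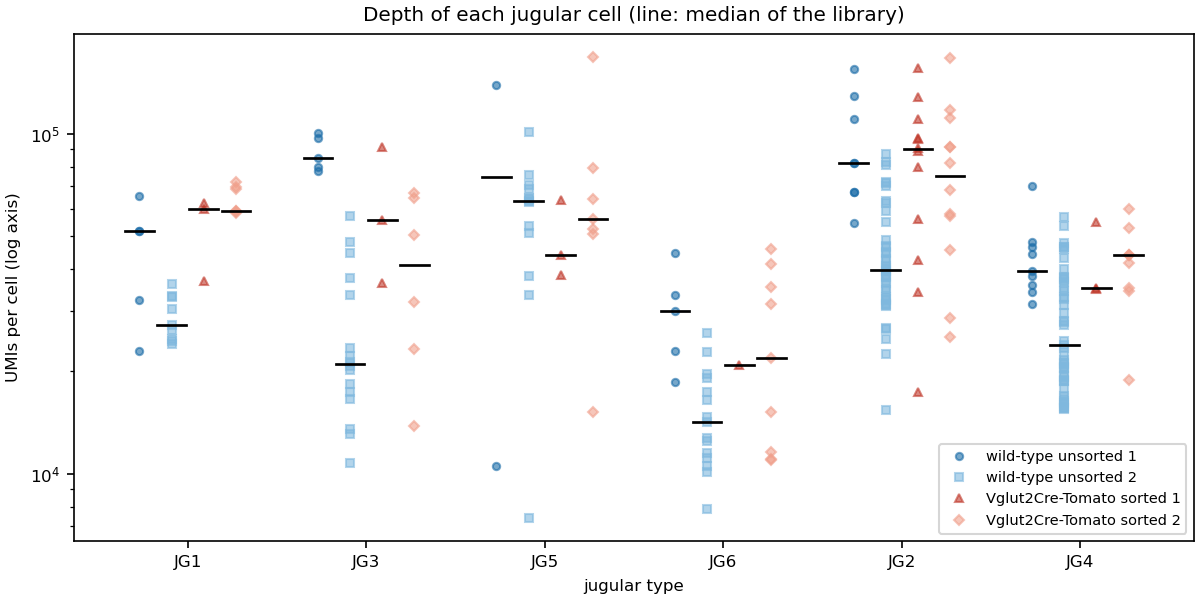
UMI count of each jugular neuron (log axis) by type, with 1 symbol per library and a line at the library's median for the type. JG6 cells lie between 7860 and 45792 UMIs, with the lowest median of the 6 types.

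The 8 marker genes given for the 4 types were not equally particular. Over all 27 clusters, Wfdc2, Sst, Il31ra, Thy1 and Asic3 had their highest mean in the type they were given for. Thy1 averaged 14.7 over the cells of JG5, with the nodose cluster NG3 next at 13.4. P2ry1 was highest in JG1, at a mean over cells of 6.82, with the nodose cluster NG1 next at 6.39. The markers given for JG6 did not set it apart: Scn7a was higher in JG5 (7.49) than in JG6 (5.68) and highest in the nodose cluster NG5 (11.3), and Pcp4 was higher in 7 nodose clusters than in JG6. Among the 6 jugular types alone, Pcp4 was highest in JG6 and Scn7a second highest.

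**Figure D2:**
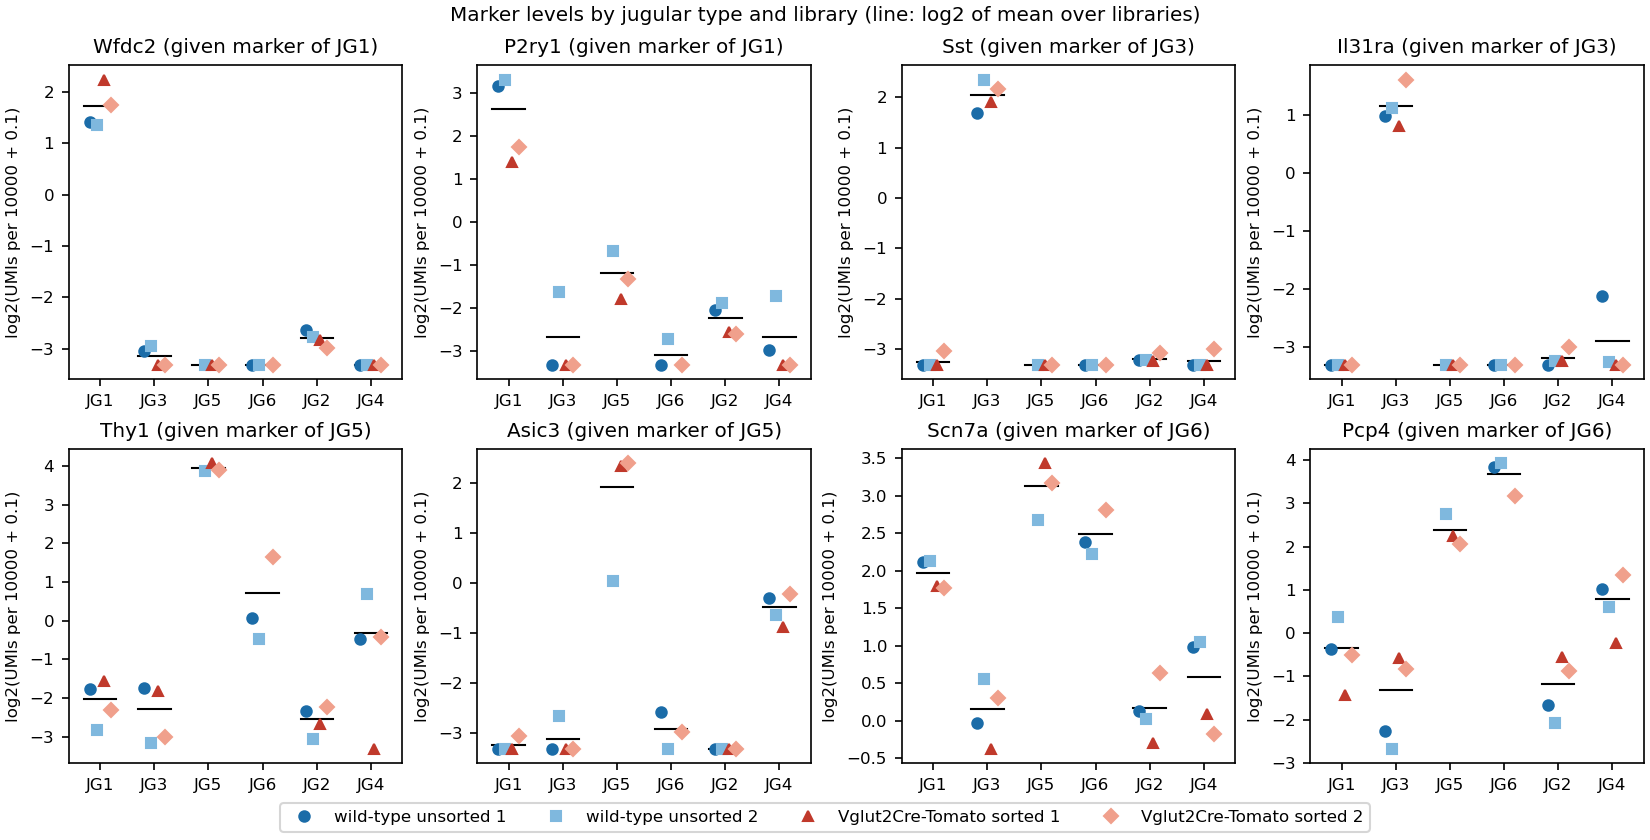
Levels of the 8 given markers, as log2 of UMIs per 10000 plus 0.1, in each jugular type, with 1 symbol per library and a line at the log2 of the mean over libraries. Wfdc2, P2ry1, Sst, Il31ra, Thy1 and Asic3 lie higher in every library of their own type than in any library of the other types, whereas the Scn7a values of JG6, up to 6.93, overlap with those of JG5, from 6.28.

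JG1 carried most, but not all, of the genes listed for the DRG class of C-fibre touch receptors. Wfdc2, which encodes a secreted protein with a whey-acidic-protein domain, was at 2.56 and 2.47 in wild-type unsorted 1 and 2 and at 4.64 and 3.25 in Vglut2Cre-Tomato sorted 1 and 2 (3.23 ± 1.0). P2ry1, a receptor for ADP, was at 8.85 and 9.88 in the unsorted and 2.53 and 3.26 in the sorted libraries (6.13 ± 3.77). Fam19a4, a secreted protein known as a mark of DRG C-LTMRs, was at 3.40, 2.14, 3.70 and 5.66 (3.73 ± 1.45). None of these 3 genes overlapped in any library with another jugular type, where the highest mean was 0.549, for Fam19a4 in JG2.

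Of 4075 genes tested, 238 were higher in JG1 than in the mean of the other 3 small types (5.84% of all) and 298 were lower (7.31%). Of the 12 genes of the C-LTMR list 9 passed the level filter, P2ry1 included, and all 9 were among the higher ones. The other 3 stayed under 0.5 in JG1 and in the mean of the other small types, so JG1 did not carry the whole list. A gene that reaches the minimum level of 0.5 only where it is high tends to be called, so counts over a list describe it and support nothing further. Of these 9, 6 passed only through JG1, and the other 3 were at 0.5 or more on both sides. Piezo2, the mechanically gated channel of touch receptors, was at 9.10, 8.91, 5.41 and 7.04 in JG1 (7.61 ± 1.74), against 4.85 ± 1.24 in JG5 (n = 3), 0.346 ± 0.110 in JG3 and 0 in all 3 libraries of JG6. Its JG1 libraries overlapped with those of JG5 and with no other type's. Slc17a8, the vesicular glutamate transporter Vglut3, was at 0.687 ± 0.167 and lay above every library of the other 5 types. Cacna1i and Cacna1h, which encode low-voltage-activated calcium channels, were at 0.931 ± 0.33 and 0.949 ± 0.218, and Cacna1i had no UMI in any JG3, JG5 or JG6 library. Gfra2, a co-receptor for neurturin, was at 2.50 ± 0.819 in JG1 and at 2.59 ± 0.774 in JG2, so that it set JG1 apart from the small types and from JG4 and not from JG2.

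The other leading genes of JG1 were Gm7271, Ceacam10, Bhlha9, Rasgrp1, Dpp10 and Fbp2. Rasgrp1, an activator of Ras, was at 7.38 ± 1.95 and Dpp10, an auxiliary subunit of Kv4 potassium channels, at 4.07 ± 0.626. Kcnd3, a Kv4 pore-forming subunit, stood at 2.83 ± 0.497 and its partners Kcnip2 and Kcnip4 at 2.15 ± 0.535 and 2.18 ± 0.591, all 3 higher than in the other small types. Against JG2, Kcnip2 and Kcnip4 had log2 ratios of -0.21 and -0.95, and Kcnd3 one of 2.49. Ceacam10 rested on 1 library: it was at 3.98 in Vglut2Cre-Tomato sorted 1 and at 0.0307 to 0.244 in the other 3, and without that library it was no longer called (log2 ratio 1.41). Of the 10 leading genes, 8 were also called with a pseudocount of 1.

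Transcription factors of sensory neurons were called higher in 7 of 19 tested genes and lower in 2, and 13 of the 19 were at 0.5 or more on both sides, of which 5 were higher and none lower. Pou4f2, a POU-domain factor, was at 0.724 ± 0.172 and Casz1, a zinc-finger factor, at 3.66 ± 0.800, both above every library of the other small types. Tbx3 was at 0.729 ± 0.211 and Tlx3 at 3.85 ± 2.19. The Tlx3 values split by library group, at 2.38 and 1.57 in the unsorted and 5.82 and 5.62 in the sorted libraries.

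Peptide transmitters were scarce in JG1. Of 9 neuropeptide genes tested, 8 were lower than in the other small types and none higher, but 7 of the 9 had passed the level filter only through the other types. The other 2 were lower. Calca, the gene for calcitonin gene-related peptide, was at 0.0387, 0, 0.199 and 0.162 in JG1, against 29.0 ± 9.56 in JG3 and 31.8 ± 9.01 in JG5. Scg2, a granin of dense-core vesicles, was at 0.0590 ± 0.0501 in JG1 and between 6.66 and 11.6 on average in the other 3. The peptidergic class list was lower in all 8 genes tested, 7 of which had passed only through the other types, among them Trpv1, the capsaicin receptor (0.0378 ± 0.0437).

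The genes above were found together in most JG1 cells. Of its 24 cells, 23 held at least 1 UMI of each of Wfdc2, P2ry1, Fam19a4, Piezo2 and Gfra2, and the remaining cell held 4 of them. The Cacna1i transcript was found in 23 of 24 JG1 cells and in 1 of 51 endothelial cells, which should lack it and whose median depth was 9670 UMIs. With each cell thinned to 10000 UMIs it was found in 13 of 24 JG1 cells.

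Against JG2 and JG4 together, 206 of 4274 genes tested were higher in JG1 (4.82%) and 147 lower (3.44%). P2ry1, Wfdc2, Rarres1 and Zfp521 led the higher ones. Rarres1, a retinoic-acid-responsive gene, was at 6.97 ± 4.49 and Zfp521, a zinc-finger factor, at 2.75 ± 0.563, against at most 0.212 in either large type. The lower ones were led by Calca, Tmem255a, Nmb and Camk2a. Nmb, which encodes neuromedin B, was at 0.12 ± 0.13 in JG1, 6.56 in JG2 and 2.21 in JG4.

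Some genes of myelinating Schwann cells and of mural cells were also higher in JG1. Mbp, myelin basic protein, was at 0.789, 2.1, 1.48 and 0.749, and Pmp22 at 9.36, 11.2, 18.4 and 11.3, both above every library of the other small types. The summed level of the 6 Schwann markers was 10.5 to 20.0 across the JG1 libraries, 3.74 to 7.72 in JG3, 5.32 to 5.57 in JG5 and 0.813 to 1.98 in JG6, with Prx and Cldn19 at 0 in every JG1 library. For comparison, JG2 gave 6.34 to 9.82 and satellite glia 17.7 to 23.0. Rgs5, a mural-cell gene, was at 1.14 ± 0.430 in JG1 while 4 of the 6 fibroblast and mural markers, Dcn, Col3a1, Lum and Acta2, were at 0. Whether RNA of other cells had a part in these values was not tested.

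JG3 held the itch-related genes of the DRG class NP3. Sst, the gene for somatostatin, was at 3.14 and 5.01 in the unsorted and 3.67 and 4.38 in the sorted libraries (4.05 ± 0.815, n = 4), while no other jugular type exceeded a mean of 0.00965. Il31ra, a subunit of the interleukin-31 receptor, was at 1.88, 2.07, 1.65 and 2.97 (2.14 ± 0.578), and its partner Osmr, the oncostatin M receptor, at 2.83, 2.55, 2.63 and 2.89 (2.73 ± 0.164). All 3 genes lay above every library of the other 5 types.

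Sst lies on mouse chromosome 16, where GENCODE M21 places it at chr16:23889573-23890958 on the minus strand. The promoter of Sst is the classic example of a cAMP response element (CRE), and the element is shown because Sst is the leading gene of JG3. The 250 bases before the start of the RefSeq transcript (GRCm38.p6, chr16:23890845-23891094, minus strand) follow, 5′ to 3′, with the element TGACGTCA in capitals.
Sst: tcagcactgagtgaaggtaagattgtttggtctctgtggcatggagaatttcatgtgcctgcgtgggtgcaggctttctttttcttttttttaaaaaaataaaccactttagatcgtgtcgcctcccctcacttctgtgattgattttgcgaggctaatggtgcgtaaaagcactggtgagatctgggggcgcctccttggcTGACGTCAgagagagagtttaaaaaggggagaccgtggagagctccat
The match covers bases 48 to 41 before the start. The same 8 letters, which read alike on both strands, occur in 1.55% of 32851 RefSeq promoter windows of 250 bases. It is a match of letters only, and these data do not measure what binds there.

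Against the other 3 small types, 243 of 4125 genes tested were higher in JG3 (5.89%) and 371 lower (8.99%). The NP3 list had 7 of 8 tested genes higher and none lower, and 7 of the 8 had passed the level filter only through JG3. Beyond the 3 above these were Htr1f, a serotonin receptor (1.68 ± 0.667), Nts, the neurotensin gene, Jak1, the kinase that acts under cytokine receptors (10.8 ± 2.29), and Ada, adenosine deaminase (0.588 ± 0.114). Nts stood at 0.925, 1.0, 0.886 and 4.97, the highest value being that of Vglut2Cre-Tomato sorted 2. In that library mitochondrial transcripts took a median of 9.13% of the UMIs of its 6 JG3 cells, against 3.77% to 4.14% in the other 3, and their part in the Nts value was not tested. Il6st, the shared receptor subunit gp130, was at 4.50 ± 1.32 in JG3 and higher than in the other small types, but not than in JG2 (log2 ratio 0.09). On chromosome 13 Il6st and Il31ra are neighbours, 9811 bases apart in GENCODE M21.

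JG3 also differed in channels and receptors of nociceptors. Scn11a, the sodium channel Nav1.9, was at 3.39, 3.21, 2.98 and 8.40 (4.49 ± 2.61), above every library of the other small types. Scn10a, Nav1.8, was at 3.85, 4.04, 4.28 and 7.34 (4.88 ± 1.65), with a log2 ratio of 1.22 that fell to 0.85 and out of the call without Vglut2Cre-Tomato sorted 2. Chrna6, a nicotinic receptor subunit, stood at 0.770 ± 0.206, F2rl2, a protease-activated receptor, at 2.07 ± 0.750, and Lpar1, a lysophosphatidic acid receptor, at 0.764 ± 0.432. Lpar1 was highest in wild-type unsorted 2, at 1.41 against 0.464 to 0.611.

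The large-fibre list was lower in JG3, with 13 of 18 tested genes lower and none higher. JG5, where these genes are high, is part of the mean they were compared with. The low levels were not particular to JG3. Thy1, Fxyd7 and Syt2 were called lower in JG1 as well. Over cells, Thy1 averaged 0.115 in JG1, 0.062 in JG3 and 0.05 in JG2. Of the 18, 10 had passed only through the other types, and of 7 at 0.5 or more on both sides 4 were lower. Thy1, a surface glycoprotein, was at 0.104 ± 0.0998 and Nefh, the heavy neurofilament subunit, at 0.616 ± 0.265, against 15.4 ± 1.13 and 18.3 ± 4.84 in JG5. The lowest genes of JG3 by log2 ratio were Thy1, Fxyd7, Ly6h and Atp2b2. Ly6h, a relative of the Ly6 toxin-like proteins, had no UMI in 3 of 4 JG3 libraries, and Atp2b2, a plasma membrane calcium pump, had none in 3 of 4 either. Slc17a6, the gene whose locus drives Cre in the sorted libraries, was lowest in JG3 of the small types, at 0.898 and 1.24 in the unsorted and 0.694 and 1.48 in the sorted libraries.

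Compared with JG2, JG3 was the closest pair of the 6 types. The Spearman correlation of the levels of 5072 genes, given as a description, averaged 0.844 over the 4 libraries (0.803 to 0.861), and 7.87% of 3709 genes were past the 2-fold rule. Each other pair had 11.4% to 29.2% past the rule, over 2 to 4 shared libraries. Fewer shared libraries make the rule easier to pass. Tmem233, a small membrane protein of nociceptors, ran at 17.8 ± 2.66 in JG3 and 17.3 in JG2, and Carhsp1 at 3.96 ± 0.462 and 3.71, while neither exceeded 0.887 in the other types. Mrgprd, the receptor that marks the DRG class NP1, was among the genes that differed, at 5.63 ± 1.21 in JG2 and 0.463 ± 0.329 in JG3.

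Against JG2 and JG4 together, 51 of 4122 genes tested were higher in JG3 (1.24%) and 28 lower (0.679%). Of the NP3 list, 7 of 9 tested genes were among the higher ones and 1, Ptprt, among the lower. Sst, Il31ra, Nts and Htr1f, near 0 in both large types, had passed the level filter only through JG3. The count therefore describes the list and supports nothing further. Etv1, an ETS transcription factor, was at 2.07, 2.66, 3.08 and 5.31 in JG3 (3.28 ± 1.42) and at most 0.0704 on average in JG2 and JG4. The lower ones were led by St6galnac5, Mgst3, Lingo1 and Cacnb4. St6galnac5, a sialyltransferase, had no UMI in any JG3 library and means of 0.862 in JG2 and 0.610 in JG4.

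The Sst values were carried by part of the JG3 cells. Sst UMIs were found in 13 of 30 cells (43.3%, 95% exact Clopper-Pearson interval 25.5 to 62.6), with up to 90 UMIs in 1 cell, and in 12 of 30 after thinning to 10000 UMIs per cell. No Sst UMI was found in 51 endothelial cells, where a limit of 3 counts allows a share of cells with a UMI of up to 5.88%. Another 10 JG3 cells held Mrgpra3, a receptor for the itch-inducing compound chloroquine, with 3 to 118 UMIs each. No cell held both, and 7 held neither. These groups of cells were chosen after their values were seen, and no test was made between them.

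The itch-related genes followed Sst within JG3. Il31ra was found in 9 of 13 cells with Sst and 2 of 17 without, Htr1f in 12 and 3, and Nts in 8 and 1. Osmr was found in both, in 12 of 13 and 16 of 17 cells. Nppb, the gene for the itch transmitter natriuretic polypeptide B, was found in 6 of 30 cells, 5 of them with Sst, and its library levels of 1.75, 0, 0.423 and 9.55 kept it out of the call. The cells with Sst were the shallower ones, at a median of 20735 UMIs against 44518 in the cells without.

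The Mrgpra3 cells carried another set of genes. Calca averaged 45.3 per 10000 in them, against 7.0 in the Sst cells and 26.8 in the cells with neither. Etv1 averaged 5.48 and 2.42 in the Mrgpra3 and Sst cells, and Nrp1, a semaphorin receptor, was found in 10 of 10 Mrgpra3 cells and 0 of 13 Sst cells. Tac1, the gene for substance P, ran the other way, at 1.05 in the Mrgpra3 cells, 13.9 in the Sst cells and 13.1 in the cells with neither. Tmem233 and Scn10a were found in all 30 cells. Wild-type unsorted 1 held 2 Sst cells and no Mrgpra3 cell, whereas each of the other 3 libraries held both kinds. No doublet caller was run on these cells.

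**Figure D3:**
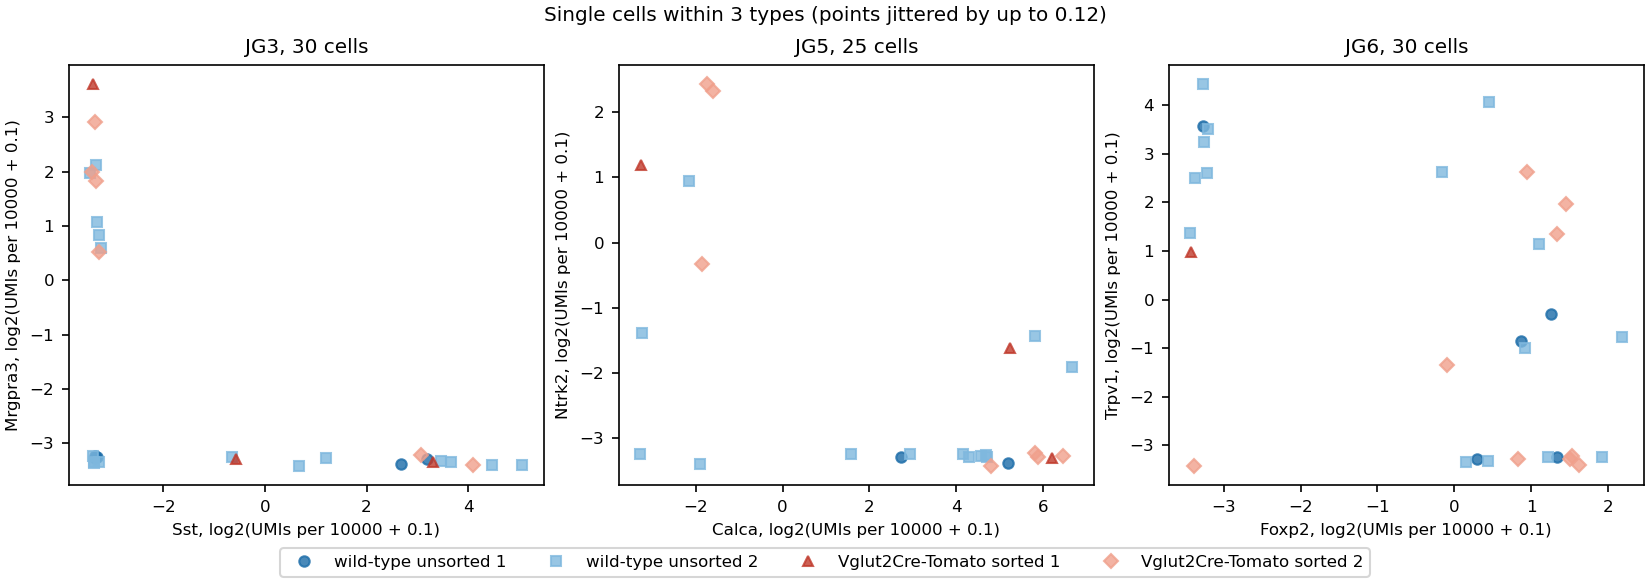
Single cells of JG3, JG5 and JG6, as log2 of UMIs per 10000 plus 0.1, with 1 symbol per library and a small random shift. Sst and Mrgpra3 occur in separate JG3 cells, Ntrk2 is high in JG5 cells with little Calca, and and the 21 JG6 cells with Foxp2 lie apart from the cells at the left edge, most of which hold Trpv1.

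JG5 was the type of large-fibre genes. Thy1 was at 14.6 in wild-type unsorted 2, 16.7 in Vglut2Cre-Tomato sorted 1 and 14.8 in sorted 2 (15.4 ± 1.13, n = 3), and the 2 cells of wild-type unsorted 1 averaged 11.6. Asic3, an acid-sensing channel, was at 0.930, 4.95 and 5.13 (3.67 ± 2.37), and S100b, a calcium-binding protein, at 23.1, 15.2 and 7.71 (15.4 ± 7.71). All 3 lay above every library of the other 5 types, whose highest means were 1.54 for Thy1 in JG6, 0.612 for Asic3 in JG4 and 0.791 for S100b in JG4.

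Of 4301 genes tested, 540 were higher in JG5 than in the mean of the other small types (12.6%) and 340 lower (7.91%). Wild-type unsorted 2 gave 13 of its 25 cells, and without that library, which leaves 2, the counts were 736 higher and 548 lower. With the 2 cells of wild-type unsorted 1 taken in, a setting chosen after seeing the data, 352 were higher. Of the large-fibre list, 12 of 19 tested genes were higher and 3 lower. Of the 11 at 0.5 or more on both sides, 7 were higher and 1 lower. The neurofilament genes Nefh (18.3 ± 4.84), Nefm (20.1 ± 2.33) and Nefl (40.6 ± 5.01) all lay above every library of the other small types, and Syt2, a fast synaptotagmin, stood at 4.34 ± 1.23. Peripherin (Prph), the intermediate filament of small neurons, was lower, at 13.5, 12.5 and 13.2, against means of 29.8 to 40.2 in the other small types.

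Many ion channel genes were higher in JG5. Of 23 potassium and HCN channel genes tested, 13 were higher and 1 lower, and of the 12 at 0.5 or more on both sides 5 were higher and none lower. Kcna1, a potassium channel of myelinated axons, was at 3.77 ± 0.996, above every library of the other small types. Of 10 voltage-gated sodium channel genes, 6 were higher and none lower, and 9 of the 10 were at 0.5 or more on both sides, of which 5 were higher. Scn8a, the Nav1.6 channel of nodes of Ranvier, was at 3.14, 5.02 and 4.41 (4.19 ± 0.959) and Scn1a at 1.62 ± 0.627, both above every library of the other small types. Scn7a, given as a JG6 marker, was at 6.28, 10.7 and 8.91 in JG5. Scn10a, at 4.73 ± 1.13, was called with a log2 ratio of 1.14 that fell to 0.87 without Vglut2Cre-Tomato sorted 1.

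Further leading genes of JG5 were Sema5a, Trappc3l, S100a16, Htra1, Ngfr and Pcdh7. Ngfr, the low-affinity neurotrophin receptor p75, was at 11.2, 18.2 and 14.8 (14.7 ± 3.5) and Sema5a, an axon guidance protein, at 2.27, 2.62 and 3.06 (2.65 ± 0.396). Slc17a7, the glutamate transporter Vglut1, was at 0.356, 0.474 and 1.45 in JG5 and no more than 0.00604 on average elsewhere among the jugular types. Its call was lost without Vglut2Cre-Tomato sorted 2, which held its highest level. Htr3a, a serotonin receptor, was at 1.04 ± 0.270, Chrm2, a muscarinic receptor, at 0.613 ± 0.33 and Cnr1, a cannabinoid receptor, at 0.881 ± 0.467. These were 3 of 5 tested genes of the list of serotonin, acetylcholine, opioid and cannabinoid receptors. All 5 had passed the level filter only through JG5, so nothing follows from their being higher. Chrm2 was not called without Vglut2Cre-Tomato sorted 1.

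Among transcription factors, 7 of 22 tested were higher in JG5 and 5 lower, and of the 12 at 0.5 or more on both sides 1 was higher and 3 lower. Runx1, a factor of small-diameter neurons, was at 0.0229, 0.0521 and 0.0938, against means of 1.17 to 3.88 in the other 5 types. Maf (0.948 ± 0.229) and Meis2 (1.39 ± 0.159), factors known from low-threshold mechanoreceptors, were higher. The lowest genes of JG5 by log2 ratio were Fxyd2, Rasgrp1, Rarres1 and Acpp. Fxyd2, a regulator of the sodium pump, was at 1.65 ± 1.08 in JG5, 72.1 ± 18.7 in JG1, 55.3 ± 15.7 in JG3 and 0.951 ± 0.479 in JG6, so that JG1 and JG3 were high and JG5 and JG6 low. Acpp, the phosphatase of non-peptidergic C fibres, was at 0.0480 ± 0.0551.

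Against JG2 and JG4 together, 381 of 4554 genes tested were higher in JG5 (8.37%) and 178 lower (3.91%), and without wild-type unsorted 2 the counts were 599 and 359, while 243 were higher with the 2 cells of wild-type unsorted 1 taken in. Of the large-fibre list 14 of 18 tested genes were higher and 2, Prph and Ina, lower. The side through which they passed the level filter was not split out here, so the count only describes the list. Lgi3, Cpne6 and Sv2b, genes of synaptic and axonal proteins, were at 2.62 ± 1.32, 3.84 ± 0.349 and 3.03 ± 1.24 in JG5 and at 0.0690 or less on average in both large types. Cd44, Emp3 and Dusp26 were lower, Dusp26 at 0.553 ± 0.229 against 7.74 in JG2 and 6.04 in JG4.

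Mitochondrial transcripts varied with the library in JG5 as well as in JG3. Their median share of a cell's UMIs was 4.05% in wild-type unsorted 2, 7.54% in Vglut2Cre-Tomato sorted 1 and 13.2% in sorted 2, against 4.09%, 4.80% and 6.41% in JG6, where the value of sorted 1 is that of 1 cell. Its part in the spread of JG5 values was not tested.

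JG5 cells shared some genes and differed in others. Thy1, Nefh and Piezo2 were each found in all 25 cells. Spp1, osteopontin, a known mark of proprioceptors and large touch afferents, was found in 4 of 25 cells, and in 1 of them it reached 121 UMIs. Its library levels were 0.0336, 0.260 and 3.19, and it was not called without Vglut2Cre-Tomato sorted 2. Ntrk3, the receptor for neurotrophin-3, at 5.87, 2.29 and 1.47, was no longer called higher without wild-type unsorted 2 (log2 ratio 0.77).

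JG6 carried genes of the Trpm8 class of cool-sensing neurons. Foxp2, a forkhead transcription factor, was at 1.52 in wild-type unsorted 1, 1.24 in unsorted 2 and 2.02 in Vglut2Cre-Tomato sorted 2 (1.59 ± 0.395, n = 3), and had no UMI in any JG1, JG3 or JG5 library. Trpm8, the cold- and menthol-gated channel, was at 0.360, 0.655 and 1.54 (0.850 ± 0.611) and had none there either. Gpr26, an orphan receptor, was at 1.15, 0.957 and 1.84 (1.32 ± 0.464). The groups did not overlap for any of the 3 genes, and the mean in JG2 and JG4 was 0.0569 at most. The only JG6 cell of Vglut2Cre-Tomato sorted 1 held neither Foxp2 nor Trpm8. With that cell taken in as a library, a setting chosen after seeing the data, 3 of the 10 leading genes of JG6 were no longer called: Foxp2, Gpr26 and Trpm8.

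Against the other 3 small types, 197 of 4153 genes tested were higher in JG6 (4.74%) and 371 lower (8.93%). The list for the Trpm8 class had 6 of 6 tested genes higher: Trpm8, Foxp2, Gpr26, Cdh8, Tac1 and Trpv1. The first 4 of these had passed the level filter only through JG6, and Tac1 and Trpv1 were at 0.5 or more on both sides. Cdh8, a cadherin known from cool-sensing neurons, was at 1.01, 0.622 and 1.66 (1.10 ± 0.524). Tac1 was at 13, 11.9 and 24.6 (16.5 ± 7.04) and overlapped with JG3 (12.3 ± 11.6), and without Vglut2Cre-Tomato sorted 2 its log2 ratio fell from 1.49 to 0.74 and out of the call. Trpv1 was at 2.59, 5.56 and 1.40, in the range of JG3 and JG4.

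The gene with the largest ratio in JG6 was Hjurp, which encodes a histone chaperone of centromeres, at 4.08, 3.80 and 12.7 (6.87 ± 5.09), against 0.158 to 0.326 on average in the other 5 types. Hjurp lies head to head with Trpm8 on chromosome 1: GENCODE M21 places Hjurp at chr1:88262471-88277633 on the minus strand and Trpm8 at chr1:88277661-88389293 on the plus strand, 27 bases apart. All 16 JG6 cells with a Trpm8 UMI also held Hjurp, another 8 held Hjurp alone and 6 held neither. The 30 cells gave 561 Hjurp UMIs and 52 of Trpm8. Whether the counting used the strand of the reads is not given in the sources used here. Without it, reads of Hjurp and of an antisense transcript over the same bases cannot be told apart.

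The start of Trpm8 depends on the annotation. RefSeq starts the gene 29074 bases further into the GENCODE gene, and the 250 bases before that start (GRCm38.p6, chr1:88306485-88306734, plus strand) are shown because Trpm8 defines the class and its start bears on its distance from Hjurp. The TATAAA box is in capitals.
Trpm8: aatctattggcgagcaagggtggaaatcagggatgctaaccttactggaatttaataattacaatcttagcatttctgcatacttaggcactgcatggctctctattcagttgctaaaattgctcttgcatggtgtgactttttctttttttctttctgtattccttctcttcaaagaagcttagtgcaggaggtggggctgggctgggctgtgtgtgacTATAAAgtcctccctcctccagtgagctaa
The box covers bases 30 to 25 before the RefSeq start. The 6 letters are found, on either strand, in 12.4% of the 32851 promoter windows, so they are not particular to this gene.

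The other leading genes of JG6 were Gsg1l, Mt2, Zcchc12, Ndrg1, Ccnd2 and Plcd4. Gsg1l, an auxiliary subunit of AMPA receptors, was at 1.41 ± 0.295, Ccnd2, a D-type cyclin, at 0.940 ± 0.355 and Plcd4, a phospholipase C, at 2.24, 2.71 and 6.62 (3.86 ± 2.41). Zcchc12 stood at 1.09 ± 0.304 and reached a mean of 0.581 in JG4, from which it was not apart (log2 ratio 0.80). Pcp4, a calmodulin-binding peptide given as a JG6 marker, was at 14.3, 15.1 and 8.86 (12.8 ± 3.40), above every library of the other small types. Scn7a was at 5.13, 4.57 and 6.93 (5.54 ± 1.23), higher than in JG2 and JG4 but with a log2 ratio of 0.30 to the other small types. Asic1, an acid-sensing channel, was at 1.5 ± 0.7 and Gria2, an AMPA receptor subunit, at 1.29 ± 0.337.

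Several channels of other jugular types were low or not detected in JG6. No Piezo2 UMI was found in its 30 cells, where a limit of 3 counts allows a share of cells with a UMI of up to 10.0%, and none in 29 cells thinned to 10000 UMIs, whereas the thinned JG1 and JG5 cells held it in 24 of 24 and 22 of 24. Scn11a had no UMI in any of the 3 JG6 libraries and Scn10a was at 0.0450, 0.185 and 0.0353. Calca was at 0.416, 0.321 and 1.21 (0.647 ± 0.485), Fxyd2 at 0.951 ± 0.479 and Nmb at 0.0359 ± 0.0622. Slc17a6, by contrast, was at 3.72, 5.73 and 3.65 in JG6 (4.37 ± 1.18), above every library of the other small types, and without wild-type unsorted 2 its log2 ratio fell from 1.05 to 0.81.

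Of the peptidergic class list, 6 of 9 tested genes were higher in JG6 and 1, Calca, lower, and of the 6 at 0.5 or more on both sides 3 were higher and 1 lower. Gal, the galanin gene, was at 0.406, 1.46 and 1.83 and Kcnk2, a mechanically gated potassium channel, at 1.92, 0.924 and 3.13, both above every library of the other small types. Gfra3, the artemin co-receptor, was at 1.21, 1.3 and 4.01. Without Vglut2Cre-Tomato sorted 2, Gfra3 (log2 ratio 0.80), Tac1 (0.74) and Adcyap1 (1.08) were no longer called, and Adcyap1 was not called without sorted 1 either (0.91). In JG4, Gal averaged 9.26, Gfra3 5.5 and Kcnk2 1.6, and none of the list was higher in JG6 than in both large types.

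Genes that respond to tissue dissociation were also higher in JG6 than in the other small types, 4 of 12 tested: Fos, Fosb, Jun and Egr1. Fos was at 9.35, 9.45 and 8.54 (9.11 ± 0.5), above every library of the other small types, where means were 1.74 to 3.69. Fosb and Jun were not called without wild-type unsorted 1. None of the 12 was called against JG2 and JG4, Fos being at 5.24 on average in JG4. The part of the dissociation and of the low depth of JG6 in its profile was not tested.

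Against JG2 and JG4 together, 162 of 4350 genes tested were higher in JG6 (3.72%) and 165 lower (3.79%). Hjurp, Rarres1, Foxp2 and Zfp521 led the higher ones and Scn11a, Nmb, Emp3 and Scn10a the lower ones. Rarres1 was at 2.15, 2.25 and 11.7 and Zfp521 at 1.46, 2.25 and 0.676, and both were also higher in JG1. The Trpm8 class list had 4 of 6 tested genes higher, Trpm8, Foxp2, Cdh8 and Gpr26, and none lower. JG6 was nearer to JG4 than to the other types, with 14.3% of 4076 genes past the 2-fold rule, against 17.4% for JG1, 20.5% for JG3, 22.5% for JG2 and 25.7% for JG5. The pair with JG5 rests on 2 shared libraries and the other pairs on 3, and fewer libraries make the rule easier to pass.

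JG6 cells differed in their Foxp2 and Trpm8 counts. Foxp2 was found in 21 of 30 cells (70.0%, 95% exact interval 50.6 to 85.3) and Trpm8 in 16 of 30 (53.3%, 34.3 to 71.7), beside 2 and 0 of 51 endothelial cells, whose median depth was 9670 UMIs. After thinning to 10000 UMIs they were found in 18 and 13 of 29 cells. A total of 23 cells held Foxp2 or Trpm8 and 7 neither, a division made after the values were seen and without a test. Of the 7, 5 came from wild-type unsorted 2, as did 10 of the 23. Trpv1 was found in all 7 cells with neither, at a mean of 9.85, and in 12 of the 23 others, at 1.82. Hjurp was found in 22 of 23 and in 2 of 7. Pcp4 averaged 10.6 in the 23 cells and 21.9 in the 7, and Scn7a 6.42 and 3.25. Depth differed too, at medians of 19621 and 12462 UMIs, and its part in the missing Foxp2 and Trpm8 counts was not tested.

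**Figure D4:**
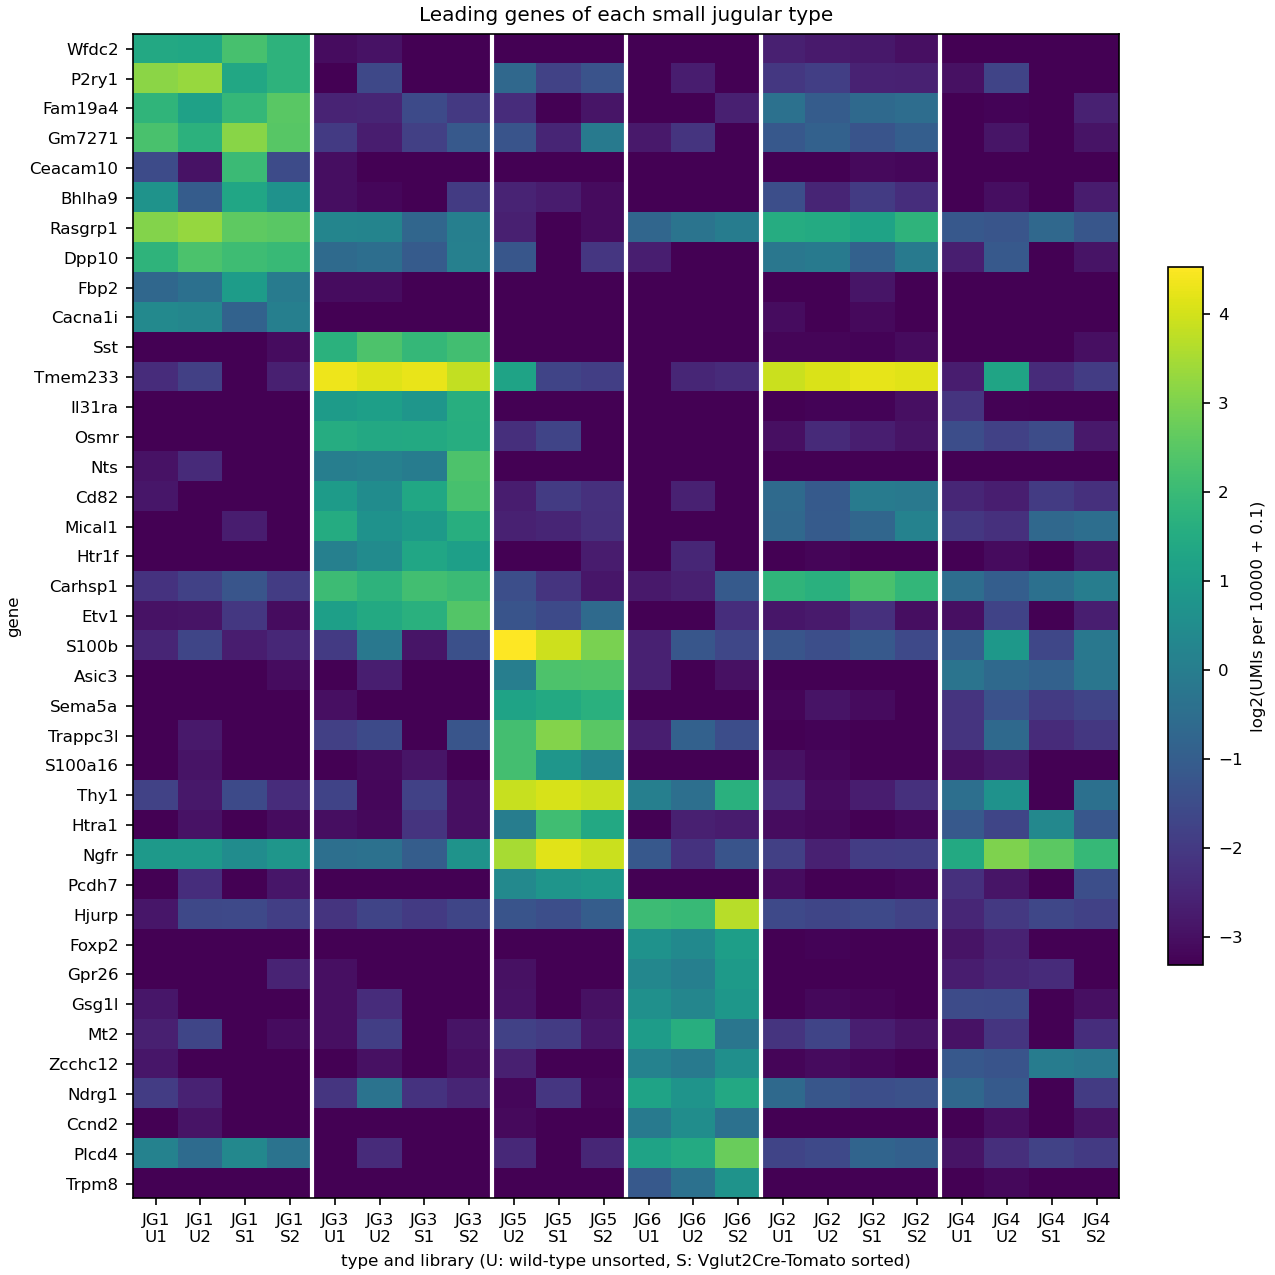
Level of leading genes of each small type (10 for JG1, JG3 and JG6, 9 for JG5), as log2 of UMIs per 10000 plus 0.1 (colour), in each jugular type and library with at least 3 cells. Most genes of each block are brightest in their own type. Ceacam10 is at 0.0307 in 1 JG1 library, Tmem233 and Carhsp1 are as bright in JG2 as in JG3, and Ngfr is also bright in JG4. Mical1, in the JG3 block, is lower in 3 small types than in both JG2 and JG4, so the large types hold it too.

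The DRG lists differed in how many types had genes called higher. The C-LTMR list was higher in JG1 and had 7 of 7, 5 of 6 and 4 of 6 tested genes lower in JG3, JG5 and JG6. Of the genes tested in these 3 types, 7 of 7, 5 of 6 and 4 of 6 had passed the level filter only through the other types. The NP3 list was higher in JG3 and had 6 of 7, 5 of 7 and 6 of 7 lower in JG1, JG5 and JG6. In each of JG1, JG5 and JG6, 6 of the 7 had passed only through the other types. The list for NP1 and NP2 had 3 of 5 tested genes higher in JG3 and 1 of 3 in JG5. Of those tested, 4 of 5 had passed only through JG3 and 1 of 3 only through JG5. The peptidergic list had 1 of 7 higher in JG3, 3 of 9 in JG5 and 6 of 9 in JG6. Over all genes tested, 4.74% to 12.6% were higher in a type and 7.31% to 8.99% lower. The list counts are tied to each other, since each type is compared with the mean of the other 3. They are also partly set by the level filter, so they describe the lists and support nothing further. The plot of list members shows them together.

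**Figure D5:**
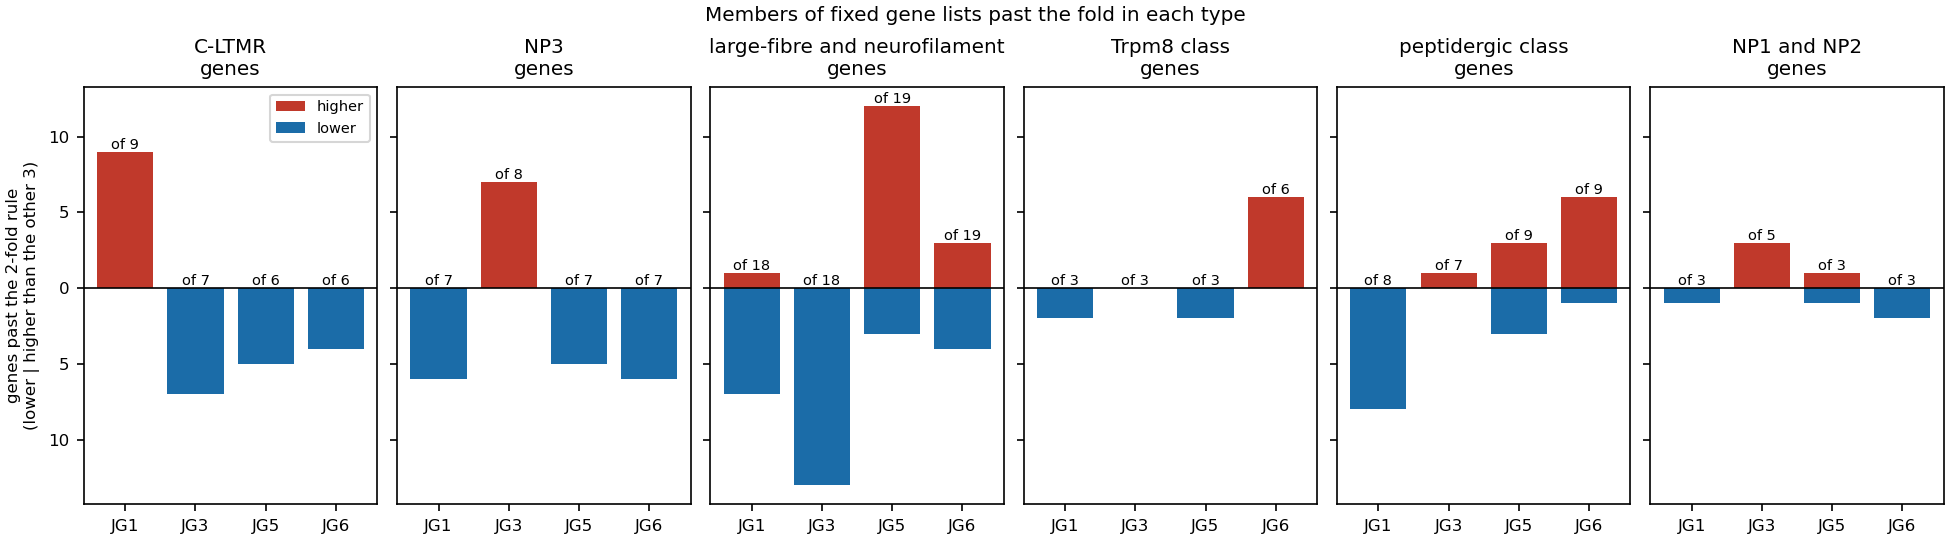
Number of genes of each DRG class list that were higher (up) or lower (down) by the 2-fold rule in each small type against the mean of the other 3, with the number tested printed above each bar. The bars point up in 1 type only for the C-LTMR, NP3 and Trpm8 lists, which are JG1, JG3 and JG6. Many members passed the level filter on 1 side only, so the bars describe the lists.

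Little was common to the 4 small types against both large ones. Of 5072 genes tested, 1 was higher in all 4 (0.0197%) and 2 were lower in all 4 (0.0394%), and these 3 were named after their values were seen. Cabp1, a neuronal calcium-binding protein, averaged 2.72 in JG1, 0.789 in JG3, 1.63 in JG5 and 0.814 in JG6, against 0.237 in JG2 and 0.194 in JG4. Ptprt, a receptor phosphatase, averaged 0.112 to 0.414 in the small types, against 2.13 and 1.46. Tmem255a averaged 0.0143 to 1.09, against 2.75 and 3.96.

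The sorted and unsorted libraries were compared over all cells of the 4 types together, which asks how the small types differ between the 2 ways of preparing cells. Sort, genotype and library preparation differ together between the groups and cannot be told apart. By limma with a mean-variance trend on log2(mean UMIs per 10000 + 1), with Benjamini-Hochberg adjustment, 26 of 3833 genes tested were higher in the sorted libraries (0.678%) and 36 lower (0.939%) at an adjusted p under 0.05 and a change of at least 2-fold on that scale. Without a filter on low levels 1 gene was higher and 0 lower of 15251, where 1882 had an unadjusted p under 0.05.

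Pfn1, an actin-binding protein, was at 0.675 and 0.218 in the unsorted and 6.64 and 4.47 in the sorted libraries, a log2 fold change of 2.18 on the log2(value + 1) scale (limma, adjusted p 4.45e-05). Calm3, a calmodulin gene, was at 1.35 and 1.5 against 8.52 and 6.64 (log2 fold change 1.82, limma adjusted p 5.45e-05). Clu and Lgmn were also among the 5 largest rises. For these 4 the sorted libraries lay above both unsorted ones. Of the 5 largest falls, Rps27, Rpl39, Rps28 and Rpl37 encode ribosomal proteins. Rps27 was at 13.6 and 17.3 in the unsorted and 3.85 and 4.81 in the sorted libraries (log2 fold change -1.62, limma adjusted p 0.000350). Of 83 ribosomal protein genes tested, 31 fell, none rose and 81 had a log2 fold change below 0. Vps8 was the other of the 5, at 1.06 and 9.14 in the unsorted and 0.482 and 0.498 in the sorted libraries, and it was not called by limma-voom (adjusted p 0.124).

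The genes that mark the types were mostly not among these. Of 42 markers and leading genes, 29 were tested, 1 was called higher, Ngfr (log2 fold change 1.03, limma adjusted p 0.0234), and none lower. P2ry1 fell short of the fold, at 2.62 and 1.89 in the unsorted and 0.817 and 0.859 in the sorted libraries (log2 fold change -0.82, limma adjusted p 0.00366). The libraries hold the types in different shares. With each type weighted equally, 26 genes were higher and 24 lower, and Pfn1 (log2 fold change 2.22, limma adjusted p 3.42e-05), Calm3 (1.76, 3.81e-05), Clu (1.56, 3.81e-05), Rps27 (-1.35, 0.00146) and Rpl39 (-1.52, 0.000682) were still called.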

How the data were processed

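Droplet libraries (4) of dissociated mouse vagal ganglia were analysed. The authors deposited natural log values, ln(1 + x) with x a gene's UMIs per 10000, in 1825 cells by 17289 genes, and a table with each cell's cluster, its total UMI count, its gene count and its mitochondrial share as a fraction. The series text states 1896 cells. Cell Ranger 2.1.1, Seurat and mm10 are named per the submitters' processing notes, with no role. For cell filters, doublet removal and clustering, no method is given in the sources used here. With the log undone, every cell summed to 10000 and 100% of values were whole UMIs (tolerance 0.01). No cell was removed.

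Levels were means over cells per library, then over libraries. Sorted and unsorted libraries were compared with limma 3.58.1 (R 4.3.3) on the deposited log values turned to linear means, since raw counts, for which edgeR was planned, were not what the files hold. Genes with a mean of at least 0.5 in at least 2 libraries were tested. In simulated data, the 2-fold rule for JG1 recovered 98.5% of 200 genes changed 4-fold (3774 genes run) and limma 78.0% (3627 genes run). Of the unchanged genes the rule called 7 and limma 0. The changed genes were drawn from the better-expressed ones, and no systematic difference between libraries was put in. These shares therefore do not carry over to 2-fold changes, low genes or the library differences of the real data.

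The text names the given markers, the 10 highest and 4 lowest genes by log2 ratio of each type, the 4 leading genes each way against JG2 and JG4, up to 4 list members past the fold per type, the 5 largest sorted-unsorted changes each way, and a fixed set that includes Prdm12, Piezo2 and Nefh. Cell groups within types and the shared genes were chosen after their values were seen, as were Pmp22, Mrgpra3, Nppb and Nrp1 where they are named. The types, gene lists and tests were chosen with earlier results of these data known. Gene positions come from GENCODE M21 and promoters from RefSeq (GRCm38.p6, 3 of 3 symbols matched).

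Alternatives were the pseudocount, the filter, the least number of cells (5, or 1, the latter chosen after seeing the data), pooled UMIs, no cells in the highest 5% of UMI counts, each library left out, comparison with each other type, and limma-voom. Results for some genes are not reported here.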

Additional observations from a re-analysis of the deposited data

Results flagged for a closer look

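In 7 of 64 sets of 4 library levels, 1 library stood apart from the others by Dixon's test at the 95% level, where chance gives about 1 in 20. In JG1 this was Vglut2Cre-Tomato sorted 1, with 3 cells, for Cacna1h (1.27), Ceacam10 (3.98) and Kcnip2 (2.95). In JG3 it was Vglut2Cre-Tomato sorted 2 for Nts (4.97), Scn10a (7.34) and Scn11a (8.40), and wild-type unsorted 2 for Lpar1 (1.41). Each was the highest of its 4 values. In the JG3 cells of Vglut2Cre-Tomato sorted 2 the median mitochondrial share was 9.13%, against 3.77% to 4.14% in the other libraries, and its part in these values was not tested. JG5 and JG6, with 3 libraries each, were not examined this way.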

How the results depend on the processing

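Among genes that were called in the main setting and followed through the alternatives, none changed direction. Genes that were not called, and some named after their values were seen, such as Nppb and Nrp1, were not checked for this. With a pseudocount of 1, the genes higher and lower than the other small types were 72 and 75 in JG1, 79 and 86 in JG3, 153 and 127 in JG5 and 37 and 96 in JG6. Against JG2 and JG4 they were 52 and 26 in JG1, 16 and 1 in JG3, 110 and 46 in JG5 and 32 and 32 in JG6. Of the 10 leading genes of each type that setting left 8, 10, 10 and 8 called, in the order JG1, JG3, JG5 and JG6. Without a filter on low levels, 632 genes were lower in JG1, 367 higher and 705 lower in JG3, 812 higher and 530 lower in JG5, and 337 higher and 704 lower in JG6. Against JG2 and JG4 the genes higher without that filter were 328, 89, 576 and 291 in the same order of types. Where a gene had to differ from each of the other 3 types, the higher and lower counts were 118 and 46 in JG1, 131 and 75 in JG3, 270 and 96 in JG5 and 92 and 49 in JG6. With UMIs pooled over all cells, 232 genes were higher and 96 lower in JG5 than in JG2 and JG4. With libraries of at least 1 cell, a setting chosen after seeing the data, 352 genes were higher in JG5 than in the other small types and 243 than in JG2 and JG4.

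With each library left out in turn, the JG5 counts ran from 439 to 736 higher and 311 to 548 lower against the other small types, and from 320 to 599 higher and 152 to 359 lower against JG2 and JG4. All the highest values came without wild-type unsorted 2. In JG1, JG3 and JG6 no count moved by over 1.5 times that way. Sorted against unsorted gave 122 higher and 84 lower where 0.1 rather than 1 was added before the log, 73 and 58 by limma-voom, and 1 and 0 without a filter. Leaving out 1 library gave 25 to 33 higher and 35 to 42 lower, with the lone library of its group assumed to vary like the other group. No paired analysis was possible because the library numbers are not shared between groups as matched samples. Depth limits what could be seen in JG6, at a median of 17978.5 UMIs per cell, and 24 to 30 cells per type limit every share.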
